A study of Arabidopsis thaliana with 4 samples.

Results

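Sugar transporters move sucrose, glucose and fructose across plant membranes. The 5 genes described here are 4 of the SWEET family, SWEET2 (AT3G14770), SWEET11 (AT3G48740), SWEET13 (AT5G50800) and SWEET17 (AT4G15920), and AT5G18840, which encodes a sugar transporter-like protein of the ERD6-like group. They are 5 of 13286 genes that had a probe set of their own in the platform annotation, and each has 1 probe set. They were selected on their signals in these same arrays, by symbol or locus, with the responses to darkness and the differences between genotypes already known. For that reason every difference given for these 5 genes is a description with no test.

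Each of the 4 groups was 1 Affymetrix ATH1 array of Arabidopsis thaliana: sfr6 in dark, sfr6 in light, wild type in dark and wild type in light. The wild type was Col-0 (stock N1092), and sfr6 was a mutant obtained by EMS mutagenesis, a chemical treatment, in the Col-0 background. All plants grew for 7 days on agar and then spent 24 h in a cabinet at 240 microEinsteins with 16 h of light and 8 h of dark a day. Dark plants were then wrapped in foil for 3 h, and light plants stayed uncovered in the cabinet for the same 3 h. The labels give no number of plants per array. They name the tissue as cell culture, but their treatment text describes plants on plates. Markers of green shoot were bright, and so was 1 of the 3 measured markers of root. RCA, the activase of the carbon-fixing enzyme Rubisco, lay between 3043 and 3522, and PYK10, a glucosidase of roots, between 1823 and 3004 over the 4 arrays. The other root markers were dim, EXPA7 between 23.3 and 54.6 and EXPA18 between 13.5 and 42.2. Markers of phloem companion cells and of xylem had no named probe set and were not analysed here.

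SWEET proteins are small membrane pores that let sugars pass down their concentration gradient, so that they can serve both export from a cell and exchange with the vacuole. SWEET11 lies in the plasma membrane and exports sucrose from leaf phloem parenchyma, the step before loading of the phloem, and SWEET13 is a sucrose transporter of the same clade. SWEET2 and SWEET17 lie in the vacuolar membrane, where SWEET17 moves fructose and SWEET2 has been tied to glucose storage in roots. ERD6-like proteins belong to another, larger fold, the major facilitator superfamily, and several of those studied move hexoses at the vacuolar membrane. In the light leaves make sucrose and fill their stores, and in the dark they draw on them. SFR6 is a subunit of Mediator, the complex between transcription factors and RNA polymerase II, and was found through freezing-sensitive mutants.

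Signals are MAS5 intensities on a linear scale, brought to a common level on each array by the authors. A signal under 22.1, the 40th percentile of all signals and called the floor here, was set to the floor before log2 was taken. A fold with its dimmer side under the floor is a lower bound. Levels of different probe sets are not compared, since each probe set has its own brightness. For the same reason the bright and dim levels of markers and their sums are only a rough guide.

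Among the 5 genes, darkness went with higher SWEET2, lower SWEET13 and SWEET17 and somewhat lower SWEET11 in both genotypes. The AT5G18840 signal of wild type was higher after darkness, and that of sfr6 lay under the floor in both conditions. In wild type, 1 of the 5 genes (AT5G18840) was at least 2-fold higher in dark, where 6.47% of 14513 probe sets were, and 1 (SWEET13) was at least 2-fold lower, where 7.19% were. In sfr6, 1 (SWEET2) was at least 2-fold higher, where 6.85% of 14564 probe sets were, and 2 (SWEET13 and SWEET17) were at least 2-fold lower, where 6.87% were. Nothing is read from these counts, because the genes were chosen with them known, and because SWEET17 in both genotypes and SWEET2 in wild type, at 1.96-fold, sit at the 2-fold line.

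**Figure D1:**
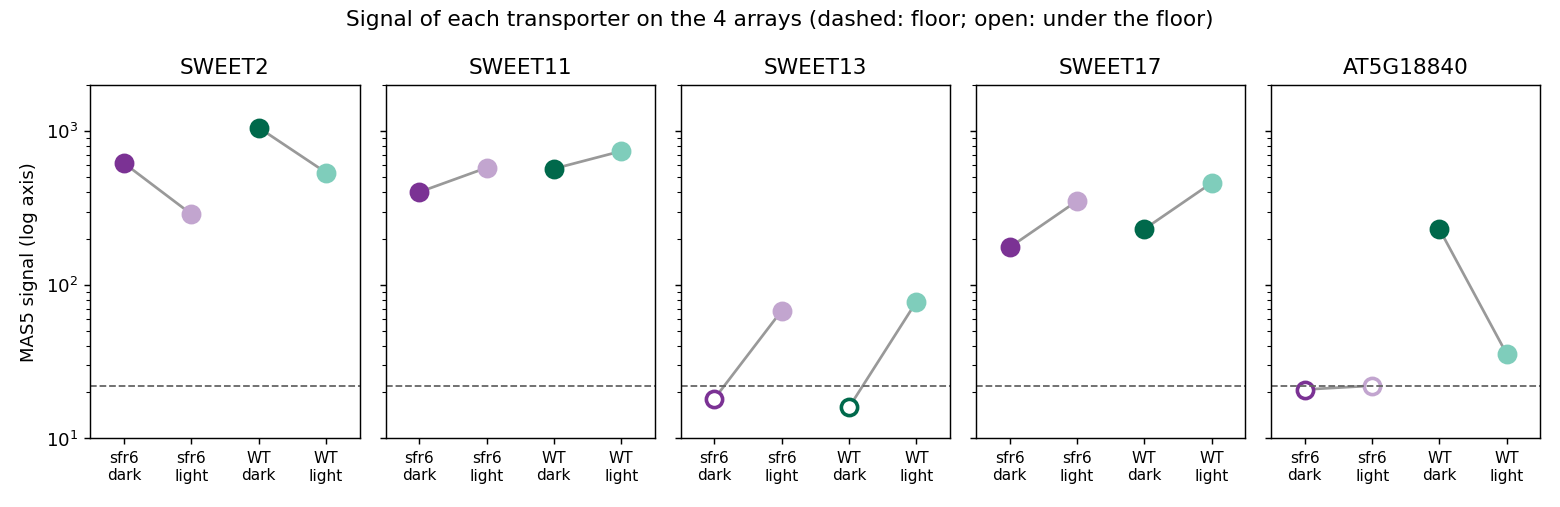
MAS5 signal on a log axis for the 5 transporters, 1 point per array, with sfr6 left of wild type and dark left of light; lines join the arrays of a genotype, the dashed line is the floor of 22.1 and open points lie under it. SWEET2 stands higher in dark and SWEET11, SWEET13 and SWEET17 lower in dark in both genotypes, while AT5G18840 stands out on the wild-type dark array alone, at 230.0.

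SWEET2, the vacuolar glucose transporter, read 619 in dark and 289 in light in sfr6, and 1055 in dark and 538 in light in wild type. Both dark arrays lay above both light arrays. Dark over light was 2.15-fold in sfr6 and 1.96-fold in wild type, and the average log2 dark effect was 1.04 ± 0.10 (SE, 4 arrays). This SE, like those below, comes from a model in which the genotypes' dark responses are taken to be equal, with 1 residual degree of freedom for each probe set. limma drew its variance towards that of probe sets of like brightness, with a weight of 5.15 prior degrees of freedom, so the SE comes mostly from other probe sets and is not the spread of this gene. In sfr6 94.4% of probe sets had a lower dark minus light value, and in wild type 93.2% did.

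SWEET17, the vacuolar fructose transporter, read 175 in dark and 351 in light in sfr6, and 230.4 in dark and 461 in light in wild type. Both dark arrays lay below both light arrays. Its log2 difference was -1.0026 in sfr6 and -0.9994 in wild type, with an average of -1.001 ± 0.11 (SE, 4 arrays). The response of sfr6 minus that of wild type was -0.0032 on the log2 scale. SWEET2 and SWEET17, both of the vacuolar membrane, went in opposite directions in the dark.

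SWEET13, the sucrose transporter, read 18.1 in dark and 68.0 in light in sfr6, and 16.0 in dark and 77.7 in light in wild type. It was over the floor on both light arrays and under it on both dark arrays. It was at least 3.07-fold lower in dark in sfr6 and at least 3.52-fold lower in wild type. With the floor at the 60th percentile of all signals these bounds were 1.17-fold and 1.34-fold. The bounds of the genotypes differ only because the light signals do. On the chromosome the gene next to it is SWEET10, whose signals of 1.98 to 12.9 lay under the floor on all 4 arrays.

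SWEET11, the sucrose exporter of the phloem parenchyma, read 401 in dark and 578 in light in sfr6, and 569.6 in dark and 741 in light in wild type. Both dark arrays lay below both light arrays, but the dark array of wild type and the light array of sfr6 were nearly level. It was lower in dark by 1.44-fold in sfr6 and by 1.30-fold in wild type, an average log2 effect of -0.45 ± 0.10 (SE, 4 arrays). In wild type 26.9% of all probe sets were lower still. PYK10, the root marker, was 1.41-fold lower in dark in sfr6 and 1.44-fold lower in wild type. Among the shoot markers, RCA was 1.11-fold lower in dark in sfr6 and 1.07-fold lower in wild type. LHCB4.1, a light-harvesting protein, was 1.16-fold and 1.10-fold lower. Its paralog LHCB4.2 was 1.11-fold higher in dark in sfr6 and 1.03-fold lower in wild type, and LHCB4.3 was 1.27-fold and 1.38-fold lower. The 3 measured root markers summed to 1865 in dark and 2659 in light in sfr6, and to 2123 in dark and 3069 in light in wild type. EXPA18 lay under the floor on both dark arrays. PYK10 alone made up nearly all of these sums, so they are not a measure of how much root there was. The part of tissue makeup in the SWEET11 values was not tested, and in whole plants fewer cells of a type and less RNA per cell cannot be told apart.

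AT5G18840, the ERD6-like gene, read 20.8 in dark and 22.0 in light in sfr6, and 230.0 in dark and 35.4 in light in wild type. The wild-type dark array stood far above the other 3. The GAPDH control, whose signal near the end of the transcript over that near its start is a sign of RNA quality, had a ratio of 1.10 in dark and 1.09 in light in sfr6, and of 1.35 in dark and 1.13 in light in wild type. The wild-type dark array was thus the highest in this ratio too, and its part in the AT5G18840 values was not tested. Dark over light was 6.50-fold in wild type, where 99.5% of probe sets had a lower value, and no fold is given for sfr6, where both arrays were under the floor. The dark response of sfr6 minus that of wild type was -2.70 on the log2 scale. Its sfr6 part rests on the floor, which both sfr6 signals nearly reached. With the floor at the 60th percentile the wild-type fold was a bound of 3.96 and the difference of responses -1.99. Of 15121 probe sets 1.48% had a difference at least 2-fold lower and 1.08% at least 2-fold higher. This is the pattern for which the gene had been noted. With 1 array per group nothing is left to estimate the error of such a difference. The average dark effect of 1.35 ± 0.57 (SE, 4 arrays) therefore describes neither genotype. The next gene on the chromosome, AT5G18850, was higher in dark in both, 2.16-fold in sfr6 and 1.43-fold in wild type.

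The dark responses of the 4 SWEET genes were close together in the genotypes on the deposited scale, though this was not tested. The response of sfr6 minus that of wild type was 0.13 for SWEET2, -0.15 for SWEET11, 0.19 for SWEET13 and -0.0032 for SWEET17 on the log2 scale. The SD of this difference over 15121 probe sets was 0.40. The share of probe sets with a lower value was 63.1% for SWEET2, 30.0% for SWEET11, 69.8% for SWEET13 and 46.5% for SWEET17. These are ordinary places among all probe sets, so nothing particular to these genes is read from them. The value of SWEET13 rests on dark signals set to the floor, so it only mirrors the genotype difference in light. Its sign turned, to -0.17 with the arrays centred on the median of their spike-in controls and to -0.03 with each spike-in paired with itself. SWEET2 turned to -0.16 under the first centring and was 0.05 under the pairing. SWEET11 was -0.43 under the first and -0.23 under the pairing, and SWEET17 was -0.29 and -0.09. Such centring moves signals over the floor alike on an array. Under the first, the median dark response of probe sets over the floor on all arrays shifted by 0.15 in wild type and -0.14 in sfr6. The SD and the shares above belong to the deposited scale and are not set against the centred values.

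Between genotypes, SWEET2 and AT5G18840 were lower in sfr6 in light and dark, AT5G18840 most of all in the dark. SWEET11, SWEET13 and SWEET17 differed less, and the sign of SWEET11 and SWEET13 in light depended on the scaling of the arrays. In light, 0 of the 5 genes were at least 2-fold higher, where 1.01% of 14658 probe sets were, and 0 were at least 2-fold lower, where 1.72% were. In dark, 0 were at least 2-fold higher, where 0.775% of 13930 probe sets were, and 1 (AT5G18840) was at least 2-fold lower, where 1.67% were. Taken by direction alone on the deposited scale, 4 of the 5 genes were lower in sfr6 in both light and dark, as were 25.5% of 15121 probe sets. SWEET13, the exception, was lower in light, by 1.14-fold, and under the floor on both dark arrays.

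SWEET2 was lower in sfr6 by 1.70-fold in dark and by 1.86-fold in light. Of all probe sets, 2.96% in dark and 2.31% in light had a lower value. The sfr6 dark array, at 619, stood only a little above the wild-type light array, at 538. SWEET17 was lower in sfr6 by 1.32-fold in dark and by 1.31-fold in light, and SWEET11 by 1.42-fold in dark and by 1.28-fold in light. Their log2 differences, from -0.36 to -0.51, were close to the SD over all probe sets, 0.42 in light and 0.40 in dark. AT5G18840 was at least 10.4-fold lower in sfr6 in dark and at least 1.60-fold lower in light, both bounds because the sfr6 signals lay under the floor. With the floor at the 60th percentile the bound in dark was 3.96-fold, and in light both arrays lay under the floor.

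These genotype differences depend on how the arrays are scaled. The 18 spike-in control probe sets had a median log2 difference of -0.19 in light and -0.12 in dark for sfr6 minus wild type, with SDs of 0.22 and 0.13. With spike-in centring, the median difference of the probe sets whose 4 signals all reached the floor shifted by 0.36 for light and by 0.08 for dark, or by 0.22 and 0.14 when each spike-in was paired with itself. SWEET11 in light was then 0.0051 or -0.14 and SWEET13 in light 0.17 or 0.03, so the sign in light turned for SWEET13 under both and for SWEET11 under the first. SWEET17 in light was -0.03 or -0.17. SWEET2 in light was -0.53 or -0.68 and AT5G18840 in dark -3.34 or -3.32, both still lower in sfr6. The bound of AT5G18840 in light shrank from -0.68 on the deposited scale to -0.32 or -0.46. The control for 25S ribosomal RNA read 1321 in dark and 120 in light in sfr6, and 364 in dark and 122 in light in wild type, and its part in these values was not tested.

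**Figure D2:**
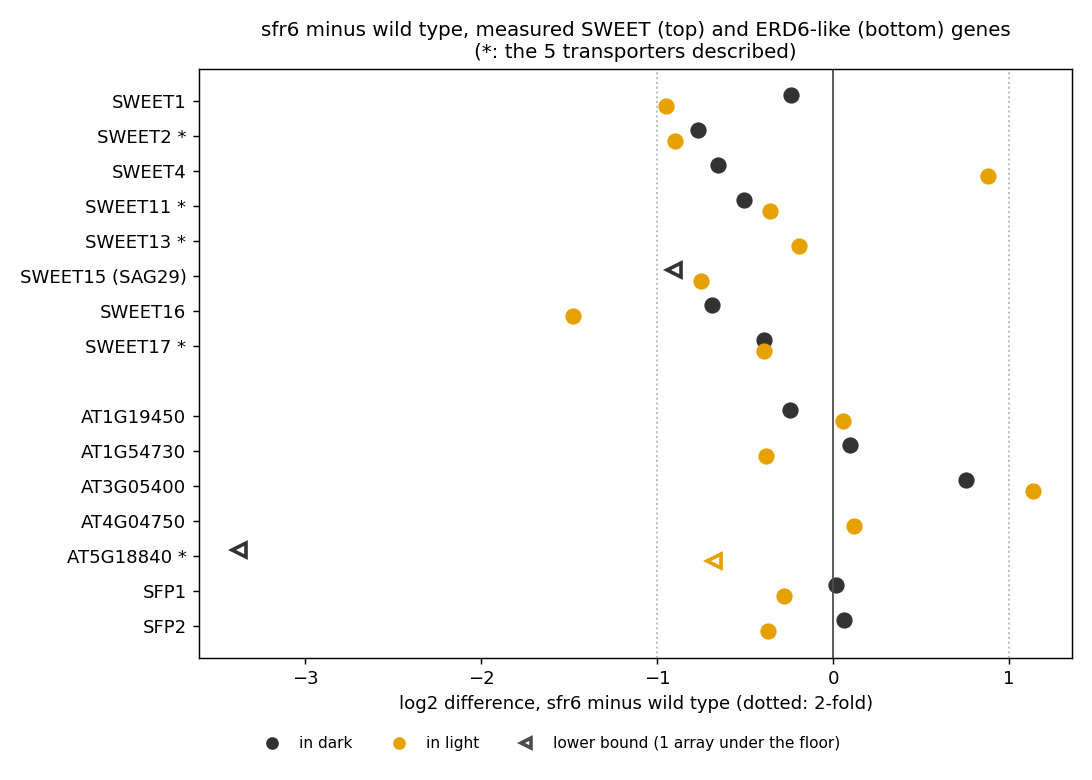
Log2 difference of sfr6 minus wild type in dark and in light for the 8 measured SWEET genes (top) and the 7 measured ERD6-like genes (bottom) on the deposited scale; triangles are lower bounds, dotted lines mark 2-fold and a missing point means that both arrays lay under the floor. Most SWEET points lie left of 0, AT5G18840 in dark lies farthest left, and AT3G05400 lies right of 0 in both conditions.

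The rest of the SWEET family sets the 4 members in context. Of its 17 genes 16 had a named probe set, and SWEET12, the partner of SWEET11 in sucrose export, was not analysed here. In 8 genes (SWEET3, SWEET5, SWEET6, SWEET7, SWEET8, SWEET9, SWEET10 and SWEET14) all signals lay under the floor, the highest being 19.5. The other 8 were SWEET1, SWEET2, SWEET4, SWEET11, SWEET13, SWEET15, SWEET16 and SWEET17. Of these, 6 were lower in sfr6 than in wild type in both light and dark, which is 3 members (SWEET2, SWEET11 and SWEET17) and 3 others (SWEET1, SWEET15 and SWEET16). The count was between 5 and 6 in each of 7 other settings of floor and scale, under which the share of all probe sets lower in both lay between 8.99% and 29.3%. None of the 8 was higher in sfr6 in both conditions on the deposited scale or in these 7 settings, where 29.9% to 54.1% of all probe sets were. Nothing is read from these counts, because the 3 members in them were chosen with their differences known. The 7 settings also reuse the same 4 arrays.

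SWEET15, also known as SAG29, a sucrose transporter induced in senescing leaves, read 16.7 in dark and 70.8 in light in sfr6, and 41.4 in dark and 119 in light in wild type. It fell in the dark by 1.60 ± 0.18 on the log2 scale, averaged over genotypes (SE, limma, adjusted p 0.0018 over all probe sets), and the sfr6 dark signal lay under the floor. With the floor at the 60th percentile its effect was -0.66 and did not pass (adjusted p 0.064). The SWEET15 response in sfr6 was a bound of -1.68, and -2.09 with the floor at the 20th percentile. Its average fall is therefore a lower bound too, with an SE that rests in part on the floor. SWEET13 and SWEET15 belong to the same sucrose-transporting clade as SWEET11, and all 3 were lower in dark in both genotypes. SWEET11 and SWEET13 were chosen with this known, and SWEET11 was only 1.30-fold lower in wild type. SWEET genes under the floor and SWEET12 are not covered, so nothing is read about the clade. SWEET16, another vacuolar member, read 98.8 in dark and 50.8 in light in sfr6, and 159 in dark and 142 in light in wild type. Its average dark effect of 0.56 ± 0.22 did not pass (adjusted p 0.098). It was lower in sfr6 by 1.61-fold in dark and by 2.79-fold in light. SWEET1 and SWEET4, which carry hexoses, did not pass either, with average effects of -0.27 and -0.58 (adjusted p 0.38 and 0.26).

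**Figure D3:**
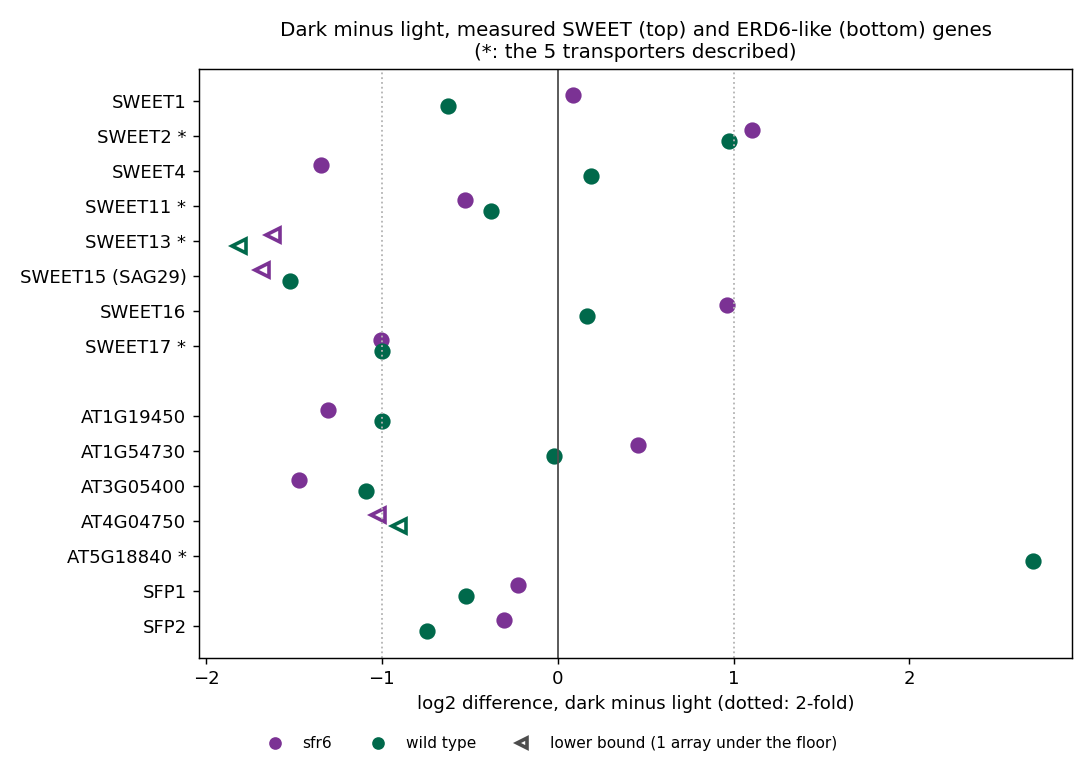
Log2 difference of dark minus light in sfr6 and in wild type for the same 8 SWEET genes (top) and 7 ERD6-like genes (bottom); triangles are lower bounds and dotted lines mark 2-fold. SWEET13, SWEET15 and SWEET17 lie near or beyond -1 in both genotypes, SWEET2 near 1 in both, and AT5G18840 at 2.70 in wild type with no value in sfr6.

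Of the 19 genes of the ERD6-like list, 10 had a named probe set, and 7 of them reached the floor on 1 or more arrays. Apart from AT5G18840, 3 of the 6 others tested fell in the dark and 0 rose, where 17.8% of 15121 probe sets fell and 15.4% rose by the same test. The list was chosen with earlier results of these data known, so nothing is read from this count. AT1G19450 read 248 in dark and 615 in light in sfr6, and 295 in dark and 590.0 in light in wild type, averaging -1.15 ± 0.12 on the log2 scale (adjusted p 0.0014). AT3G05400 fell by 1.28 ± 0.18 on the log2 scale (adjusted p 0.0038) and AT4G04750 by at least 0.96 ± 0.16 (adjusted p 0.0074). Both dark signals of AT4G04750 lay under the floor, and with the floor at the 60th percentile all 4 did, so that the gene was no longer tested. The SE and adjusted p of AT4G04750 rest on values set to the floor and are not the error of its bound. SFP1, at -0.37, SFP2, at -0.52, and AT1G54730, at 0.22, did not pass (adjusted p 0.054, 0.088 and 0.40). Among the 7 measured genes only AT5G18840 had an at least 2-fold higher dark signal in wild type. It was chosen with that value known, and the rest of the 19 lay under the floor or had no named probe set. Nothing is therefore read from its standing apart. AT3G05400 was 2.20-fold higher in sfr6 in light and 1.69-fold higher in dark, opposite to AT5G18840.

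Other sugar genes were taken from lists of transporters and of sucrose metabolism. Over all lists, the 5 genes left out, 25 genes were tested, of which 1 rose and 9 fell, against the 15.4% and 17.8% of all probe sets given above. All lists, those of SWEET and ERD6-like genes included, were chosen with earlier results of these data known. Nothing is read from this count, and the adjusted p values of list genes carry the same limit. Many listed genes had no named probe set. Of the 24 genes of sucrose synthesis and cleavage 4 had one, and of the 14 proton-coupled hexose symporters 4. The gene that rose was TMT1, a vacuolar transporter that loads glucose into the vacuole, with an average log2 effect of 1.48 ± 0.25 (adjusted p 0.0076). Its signal was 194 in dark and 102 in light in sfr6, and 499.7 in dark and 123 in light in wild type, which is 1.91-fold and 4.06-fold. The TMT1 response of sfr6 minus that of wild type was -1.09 on the log2 scale. The fit takes these responses as equal, so the average effect of TMT1 describes neither genotype. As for AT5G18840, the wild-type dark array stood highest, but here both genotypes were higher in the dark. TMT2, its paralog, fell by 0.95 ± 0.18 on the log2 scale (adjusted p 0.0101), and AT5G17010, a vacuolar glucose transporter homolog, by 0.53 ± 0.13 (adjusted p 0.027). The other falls were in genes of sucrose synthesis and of the plastid envelope. ATSPS4F, a sucrose phosphate synthase, fell by 1.09 ± 0.14, AT2G35840, a sucrose phosphatase, by 0.75 ± 0.11, and AT5G17630, which carries xylulose phosphate across the plastid envelope, by 1.08 ± 0.14 (adjusted p 0.0025, 0.0052 and 0.0029). Of the lists of proton-coupled hexose symporters and of polyol and inositol transporters, 0 of 2 and 0 of 1 tested genes passed. None of the sucrose symporters and none of the hexokinases and trehalose phosphate synthases listed had a named probe set, and they were not analysed here.

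To see which genes had the most similar profile, each member's log2 signals, centred on their mean, were set against those of 8098 other measured genes. The measure is the root mean square difference over the 4 arrays, and 3 genes are named for each. For SWEET2 they were AT4G17070, AT5G24570 and AT3G07350, at 0.05 to 0.07. For SWEET11 they were AT5G57040, AT5G19500 and AT1G52140, at 0.02, and for SWEET17 AT1G74640, AT4G24700 and AT4G29070, at 0.04 to 0.05. For SWEET13 they were AT1G70985, AT1G76960 and AT3G07090, at 0.04 to 0.07, where signals set to the floor make up part of the match.

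No gene compared came that close to AT5G18840. Its nearest were AT1G10340 at 0.39, CML38, a calmodulin-like calcium sensor, at 0.40 and AT1G62480 at 0.46. Distances by this measure tend to grow with the size of a response, and AT5G18840 was chosen with its large response known. Nothing is therefore read from its distance. AT1G62480 read 443 in dark and 198 in light in sfr6, and 2301 in dark and 357 in light in wild type, so that its wild-type dark array also stood highest, with all 4 signals over the floor. AT1G10340 read 27.0 in dark and 6.70 in light in sfr6, and 163 in dark and 15.7 in light in wild type. CML38 read 10.9 in dark and 2.11 in light in sfr6, and 125 in dark and 7.59 in light in wild type. The light signals of both these genes and the sfr6 dark signal of CML38 lay under the floor. With 4 arrays such likeness is a description only.

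**Figure D4:**
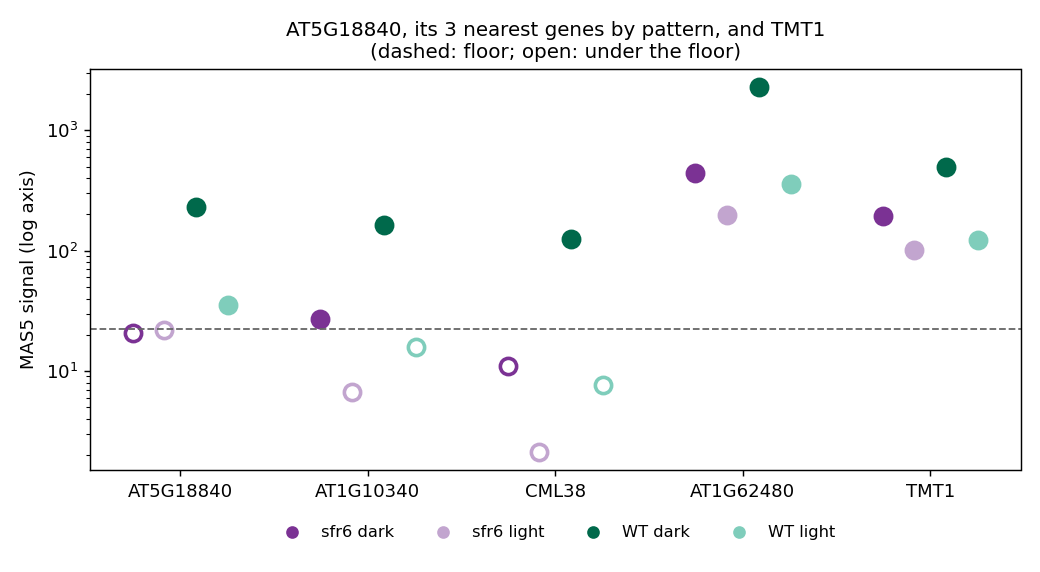
MAS5 signal on a log axis on the 4 arrays for AT5G18840, its 3 nearest genes by profile and TMT1; the dashed line is the floor and open points lie under it, and heights of different genes are not comparable. In each gene the wild-type dark array is the highest of the 4.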

How the data were processed

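RNA of 4 samples was hybridised to 1 array each, so there is no replicate, and the number of arrays limits the precision. The deposited intensity values are linear MAS5 signals; the submitters' processing notes name MAS5 without a version. Detection calls were not used here. Of 22810 probe sets, 64 controls were left out. The platform annotation named 1 gene for 13513, several for 503 and none for 8730, and 13436 were found in RefSeq's genes for TAIR10.1, which served for names and gene order alone. Where a gene had more than 1 probe set, the brightest was used.

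Signals under the floor (40th percentile) were set to it before the log2 transform. Comparisons used probe sets with 1 or more of their arrays at or above the floor. For average dark effects, limma 3.58.1 (R 4.3.3) was fitted to 15121 probe sets with genotype and darkness as additive terms (lmFit, eBayes with trend), and an effect passed at a Benjamini-Hochberg adjusted p under 0.05. "Rose" and "fell" mark calls of this test. Named genes were the 5 members, all measured SWEET and ERD6-like genes, up to 10 called sugar genes by size of effect, and 3 nearest genes per member. Members and lists were chosen with earlier results of these data known. Alternatives changed the floor, the scaling, the filter, the variance prior and the fold. Figures were drawn with matplotlib 3.10.9.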

Additional observations from a re-analysis of the deposited data

Results flagged for a closer look

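In 3 measured genes of the same families the dark response pointed in opposite directions in the genotypes. The difference between the responses was not tested, since there is 1 array per group. SWEET4 read 22.9 in dark and 58.3 in light in sfr6, and 36.1 in dark and 31.6 in light in wild type, a response difference of -1.54 on the log2 scale. With the floor at the 60th percentile that difference was -0.0053 and the wild-type response 0, so the opposite directions were no longer seen. SWEET1 read 73.8 in dark and 69.3 in light in sfr6, and 87.0 in dark and 134 in light in wild type, a difference of 0.71; its sfr6 response was 0.09 and, under spike-in centring, -0.05. The ERD6-like gene AT1G54730 read 103 in dark and 74.8 in light in sfr6, and 96.2 in dark and 97.5 in light in wild type, a difference of 0.48; its wild-type response was -0.02 and, under spike-in centring, 0.13, with the sign turned by the paired centring too.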

How the results depend on the processing

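Dark and light were paired within genotype through the genotype term of the limma fit. With 1 array per group no other pairing was possible. Of 175 recomputed member differences (25 differences, 7 settings), 169 moved by less than 1.5-fold and 6 moved further, all with the floor at the 60th percentile, where more signals lie under the floor. Signs changed in 6, all under spike-in centring. The 10 calls among other sugar genes ranged from 8 to 11 over their alternatives. With the floor at the 60th percentile SAG29 did not pass and AT4G04750 was no longer tested. Neither was tested when only probe sets over the floor on all 4 arrays were used. SFP1 passed under that filter, with the floor at the 20th percentile and under median centring (adjusted p 0.048, 0.049 and 0.042). Counts of members past 2-fold are small and changed as follows. Higher in dark in wild type were 2 in place of 1 under both spike-in centrings and with 1.5-fold as the line. Lower in dark in wild type were 0 in place of 1 with the floor at the 60th percentile, and 2 under quantile normalization, under median centring and at 1.5-fold. Higher in dark in sfr6 were 0 in place of 1 under spike-in centring, and lower were 1 in place of 2 with the floor at the 60th percentile. At 1.5-fold, 2 were lower in sfr6 in light in place of 0, and 2 in dark in place of 1. The spike-in centring by pairs was chosen after seeing the data. Under the floor at the 60th percentile SWEET13 was -0.23 in sfr6 and -0.42 in wild type for dark minus light, the response difference of AT5G18840 was -1.99, and over the other settings it lay between -2.70 and -3.02. Signals near the floor limit SWEET13 and AT5G18840.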

Other observations

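Among the other sugar genes, AT1G62660, which encodes a vacuolar invertase that splits sucrose into glucose and fructose, read 235 in dark and 300.5 in light in sfr6, and 521 in dark and 605 in light in wild type. It was 2.22-fold lower in sfr6 in dark and 2.01-fold lower in light, and its average dark effect of -0.29 ± 0.11 did not pass (limma adjusted p 0.091). TMT1 was 2.57-fold lower in sfr6 in dark and 1.21-fold lower in light, and TMT2 was 1.26-fold higher in dark and 1.10-fold lower in light; in light the sign of TMT1 turned under spike-in centring and that of TMT2 under both spike-in centrings. The genotype differences of these genes were not tested.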
